A study of Homo sapiens with 6 samples.

Results

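The DNAJ (HSP40) family is the set of cochaperones that direct HSP70 chaperones to their clients. Its members here are all rows of the deposited table whose symbol is DNAJA, DNAJB or DNAJC followed by digits only, 38 of 12793 rows: 3 DNAJA, 10 DNAJB and 25 DNAJC genes. They were taken by name and not by any measured value. GENCODE 29 names 42 protein-coding genes of this form, and the remaining 4 (DNAJA4, DNAJB8, DNAJB13 and DNAJC12) are not analysed here. Of the 38 members, 37 passed the filter of a mean of 1 FPKM over all libraries, and DNAJB7, at 0.628 to 0.927 FPKM, did not.

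The cells were HCT15, an established human colorectal cancer line, grown in RPMI-1640 with serum. One group of 3 libraries carried a control guide (sgctrl, genotype label WT), and the other group of 3 carried a guide against RBM15 (sgRBM15, genotype label RBM15 Knockout), made with CRISPR/Cas9. RBM15 binds RNA and guides the enzyme complex that writes m6A marks, and the study asked what its loss does within the tumour cells. The labels name neither a clone or pool nor separate cultures, and the p-values here reflect nothing but variation among these 6 libraries, possibly technical.

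Every protein of this family carries a J domain, whose histidine-proline-aspartate motif makes HSP70 hydrolyse ATP and so close on an unfolded client. Nucleotide exchange factors then release ADP and the client. DNAJA and DNAJB proteins share the layout of the bacterial cochaperone DnaJ to a greater or lesser degree, while DNAJC proteins have little in common beyond the J domain and work at fixed places: the ribosome exit, the spliceosome, the import pore of mitochondria, the lumen and membrane of the endoplasmic reticulum (ER), or synaptic and endocytic vesicles. Some members, DNAJB1 and DNAJA1 among them, are known to be induced by heat shock factor 1 when proteins misfold, and others, such as DNAJB9, DNAJB11 and DNAJC3, by the unfolded protein response of the ER.

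The targeted gene, RBM15, had more mRNA under the knockout label than in the controls. It measured 5.97, 5.89 and 5.51 FPKM across controls 1 to 3, against 17.3, 18.5 and 18.0 FPKM across knockout libraries 1 to 3 (log2 difference 1.48, SE 0.049, limma adjusted p = 3.88e-06; exact 2-sided permutation test p = 0.1, the smallest that 3 against 3 can give). The mRNA level therefore does not check the label, and below "rose" and "fell" mean called higher or lower in the libraries labelled knockout. Columns of the table summed to 402288 to 415057 FPKM, and FPKM sums are not depths. Log2 levels correlated across genes at 0.99 to 0.992 among libraries of 1 group and at 0.969 to 0.972 across groups. Of 10 colorectal epithelial markers 8 were listed, and they summed to 3808 to 3902 FPKM in controls, against 3483 to 3623 FPKM with the knockout label. Most of that sum came from KRT8 and KRT18, with control means of 1292 and 1421 FPKM. KRT8 rose, CDH1 was not called and the other 6 fell. The largest falls were those of VIL1 (17.0 and 3.87 FPKM), CDH17 (5.24 and 1.62 FPKM) and CDX2 (20.9 and 9.52 FPKM). Of 10 leukocyte, fibroblast and endothelial markers only CD68 (2.91 and 6.68 FPKM) and COL1A1 (1.154 and 1.183 FPKM) were listed. In bulk RNA, fewer cells of a type and less RNA per cell cannot be told apart, and the part of these markers in the DNAJ differences was not tested.

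The start regions of 3 members that rose are shown here, since heat shock factors are known to bind such regions of chaperone genes. Each runs 5′ to 3′ from 250 bases before to 50 bases after the RefSeq start of the gene (GRCh38.p14), and 35 of the 38 members had such an entry. DNAJB1 and DNAJA1 are shown because they rose most, and DNAJB6 because it rose and holds the same motif as DNAJA1. The DNAJA1 window is chr9:33025023-33025322 on the plus strand, the DNAJB6 window chr7:157336754-157337053 on the plus strand, and the DNAJB1 window chr19:14529222-14529521 on the minus strand. Capitals mark the core of the heat shock element, the DNA motif of heat shock factors, searched as GAANNTTC or TTCNNGAA.
DNAJA1: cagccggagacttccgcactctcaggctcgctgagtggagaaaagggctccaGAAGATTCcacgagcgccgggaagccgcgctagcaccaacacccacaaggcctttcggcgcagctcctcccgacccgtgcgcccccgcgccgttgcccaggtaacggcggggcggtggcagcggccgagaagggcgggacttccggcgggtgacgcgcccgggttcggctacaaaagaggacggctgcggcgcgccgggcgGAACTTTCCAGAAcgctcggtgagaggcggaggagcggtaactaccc
DNAJB6: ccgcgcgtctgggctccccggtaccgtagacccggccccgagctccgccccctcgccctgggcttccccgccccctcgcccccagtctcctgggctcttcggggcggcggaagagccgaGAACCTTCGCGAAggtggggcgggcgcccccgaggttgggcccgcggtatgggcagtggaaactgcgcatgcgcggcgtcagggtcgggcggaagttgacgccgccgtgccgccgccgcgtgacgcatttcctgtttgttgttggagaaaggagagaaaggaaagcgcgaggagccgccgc
DNAJB1: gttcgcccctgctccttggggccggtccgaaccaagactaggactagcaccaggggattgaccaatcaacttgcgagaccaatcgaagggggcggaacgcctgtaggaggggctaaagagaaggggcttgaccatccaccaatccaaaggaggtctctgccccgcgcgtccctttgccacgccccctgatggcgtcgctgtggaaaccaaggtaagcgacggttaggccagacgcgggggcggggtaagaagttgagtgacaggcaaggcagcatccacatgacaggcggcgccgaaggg

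In DNAJA1 the core occurred 3 times. It began 198 bases before the start and at bases 4 and 9 after it, where the last pair overlapped. In DNAJB6 it occurred as an overlapping pair beginning 131 and 126 bases before the start. The DNAJB1 window held none. Of the 10 coding transcripts that GENCODE gives for DNAJB1, 5 start inside that window, so other starts lie outside what was searched. The same holds for DNAJB6, with 4 of 10 inside, while the only 1 of DNAJA1 starts inside its window. Over the family 4 of 35 windows held the core (DNAJA1, DNAJB6, DNAJB7 and DNAJC15), or 11.4%, beside 13.7% of all 27305 windows and 11.4% of those of 15843 protein-coding genes. By outcome it was found in 2 of 13 members that rose, in 0 of 5 that fell and in 1 of 16 that were not called. The E-box CACGTG was found in DNAJB9, DNAJC8 and DNAJC16 (8.57% of members, beside 7.43% of all windows and 8.88% of coding genes). The ER stress element, CCAAT and CCACG 9 bases apart, was found in 0 of the 35 windows, in 0.0806% of all windows and in 0.12% of those of coding genes. No coding transcript of DNAJB4, DNAJB9, DNAJC5, DNAJC9 or DNAJC15 starts inside its window, and those windows are included in the counts above. These matches describe letters in a fixed window and are no sign of binding.

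Of the 37 tested members, 13 rose, 6 fell and 18 were not called at a limma adjusted p of 0.05. The 19 calls are to be read against a background of 54.5% called among all 11451 tested genes, with 25.3% higher and 29.2% lower. The balance over all genes turned with the scaling: 46.4% of called genes were higher here, 50.4% on a TPM scale, 51.6% under median centring, 53.8% under quantile normalization and 52.8% after removal of a trend with GC and length. The median log2 difference of the tested members was 0.059, beside -0.018 over all tested genes. The values of the groups did not overlap for 25 of the 37, beside 63% of all tested genes. Called differences reached 1.5-fold on the fitted scale, log2(FPKM + 1), upward for 6 members (background 2.11%) and downward for 1 (background 6.86%). The 6 were DNAJB1, DNAJA1, DNAJB4, DNAJC10, DNAJC2 and DNAJB5, and the 1 was DNAJC4. DNAJB5 passed the filter only through the libraries labelled knockout (control mean 0.937 FPKM). Reaching 1.5-fold depended on the setting for some members. With the trend in GC and length removed, DNAJC10 (0.49) and DNAJC4 (-0.56) did not reach it. Nor did DNAJB5 without control library 1 (0.54), without knockout library 2 (0.576) or without knockout library 3 (0.54). DNAJC18 reached it downward with a pseudocount of 0.1 in place of 1 (-0.80) and on a TPM scale (-0.66). DNAJA2 reached it upward without control library 1 (0.60). By role, 5 of 8 cytosolic cochaperones rose and 0 fell, 3 of 6 mitochondrial members fell and 1 rose, and the ER members went both ways, with 3 up and 3 down of 10. No test of a difference between the roles was made.

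**Figure D1:**
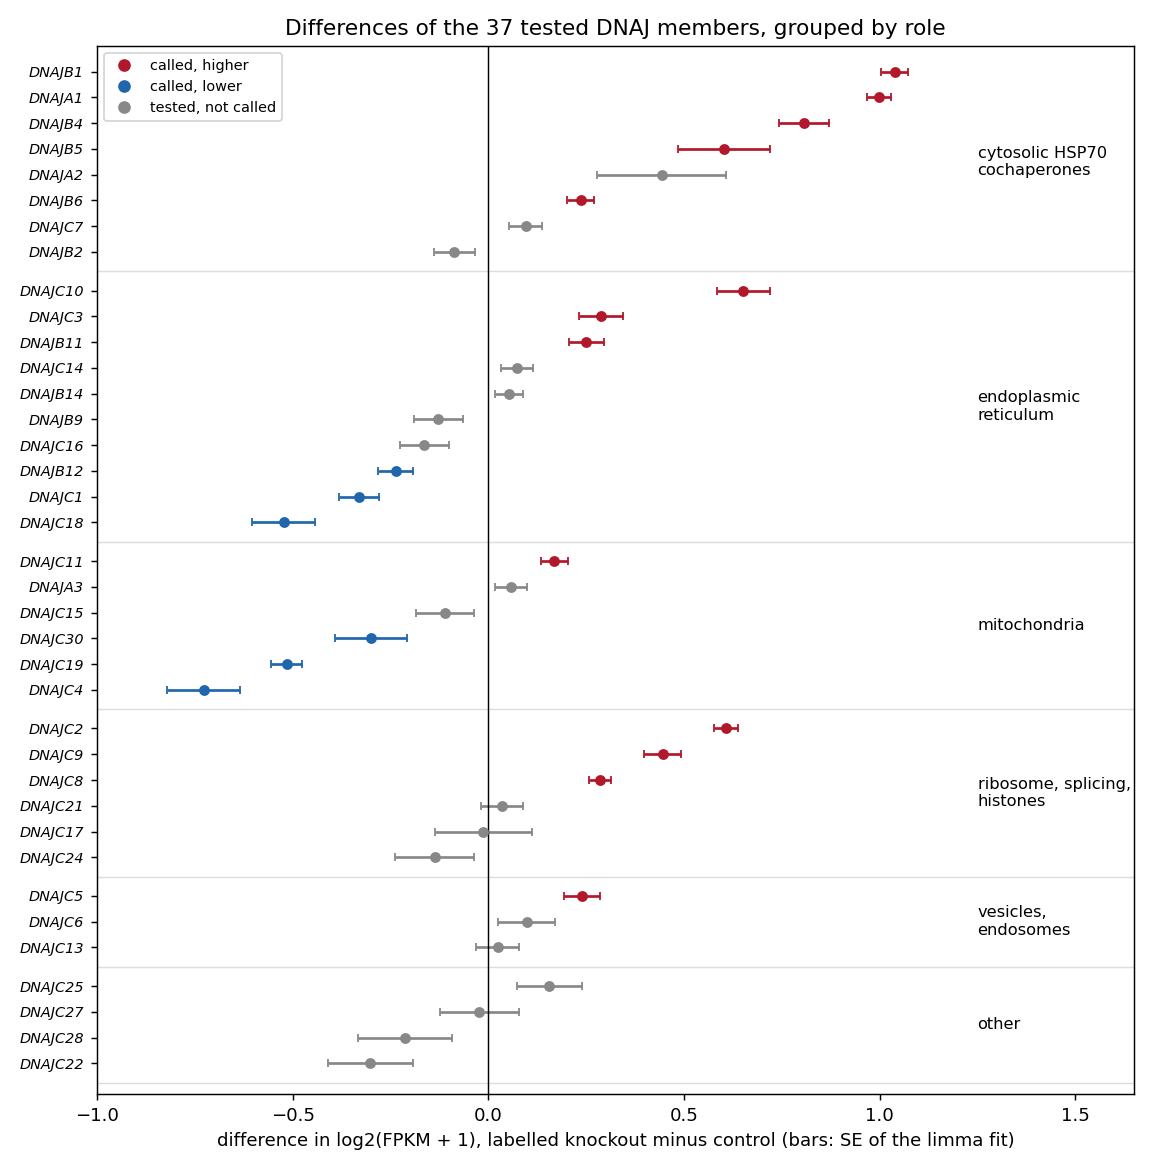
Difference in log2(FPKM + 1), libraries labelled knockout minus control, for each of the 37 tested DNAJ members (points) with the standard error of the limma fit (bars), ordered within 6 roles. Red points were called higher, blue points lower and grey points not called. The cytosolic group reaches furthest to the right, with DNAJB1 at 1.04, and the mitochondrial DNAJC4 lies furthest to the left, at -0.73.

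The cytosolic cochaperones that hand clients to HSP70 held the members with the largest increases. DNAJB1, the main heat-inducible HSP40, works with HSP70 and HSP110 to take apart protein aggregates. It measured 82.1, 84.1 and 78.7 FPKM across controls 1 to 3, against 172, 169 and 165 FPKM across knockout libraries 1 to 3. All 3 libraries labelled knockout lay far above all 3 controls, with means of 81.6 ± 2.72 and 169 ± 3.83 FPKM (SD, n = 3), a log2 difference of 1.04 (SE 0.035, limma adjusted p = 3.88e-06). DNAJB1 (ENSG00000132002) lies on the minus strand of chromosome 19 at 14514770 to 14529770, and its exons share 211 bp with those of TECR on the other strand, whose own level was lower with the knockout label (112 ± 7.55 and 83.9 ± 3.18 FPKM).

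DNAJA1, a farnesylated cochaperone and partner of HSC70 in folding and in protein import into mitochondria, moved with it. It measured 50.4, 49.6 and 50.9 FPKM across controls 1 to 3, against 103, 103 and 98.6 FPKM across knockout libraries 1 to 3. The groups were tight and far apart: the means were 50.3 ± 0.627 and 102 ± 2.57 FPKM (SD, n = 3), with a log2 difference of 1.00 (SE 0.031, limma adjusted p = 2.81e-06). DNAJA1 (ENSG00000086061) is on chromosome 9 at 33025211 to 33039907, plus strand. Its exons overlap no other gene, though GENCODE names 6 DNAJA1 pseudogenes, so the division of reads among these copies is uncertain.

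DNAJB4, the closest relative of DNAJB1 and also heat-inducible, was far less abundant and rose too. It measured 9.60, 8.45 and 8.13 FPKM across controls 1 to 3, against 15.4, 16.3 and 16.2 FPKM across knockout libraries 1 to 3. The lowest library labelled knockout was well above the highest control (log2 difference 0.81, SE 0.064, limma adjusted p = 9.83e-05). DNAJB4 (ENSG00000162616) is on chromosome 1 at 77979175 to 78017964, plus strand. DNAJB5, another relative in the same branch, was scarce: 0.775, 0.894 and 1.14 FPKM across controls 1 to 3, against 1.58, 2.04 and 2.21 FPKM across knockout libraries 1 to 3. It passed the filter only through the libraries labelled knockout, since its control mean was 0.937 FPKM, so its call (log2 difference 0.60, limma adjusted p = 0.00453) rests partly on that filter. It was also called with no filter.

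DNAJB6, which keeps polyglutamine and other aggregation-prone proteins soluble, rose by less, from 69.6 ± 1.73 to 82.2 ± 2.38 FPKM (log2 difference 0.24, SE 0.035, limma adjusted p = 0.0013). Its groups did not overlap, with controls up to 71.3 FPKM and libraries labelled knockout from 79.5 FPKM. DNAJC7, a cochaperone with tetratricopeptide repeats that binds both HSP70 and HSP90, was the second most abundant DNAJC gene. It measured 66.5, 70.6 and 72.4 FPKM across controls 1 to 3, against 72.3, 77.1 and 74.8 FPKM across knockout libraries 1 to 3. The groups overlapped and it was not called (log2 difference 0.10, limma adjusted p = 0.0925). It was called on a TPM scale, under median centring, and when the trend with GC and length was removed (0.12 each). DNAJB2, a ubiquitin-binding member known best from neurons, was not called either, at 8.74 ± 0.127 and 8.18 ± 0.446 FPKM.

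DNAJA2, the constitutive relative of DNAJA1, had the widest spread within groups of any member. It measured 57.5, 41.1 and 41.0 FPKM across controls 1 to 3, against 51.4, 67.8 and 71.0 FPKM across knockout libraries 1 to 3. Control library 1 lay above knockout library 1, so the groups overlapped. The pooled SD within a group was 0.263 on the log2 scale, beside a median of 0.0639 over the tested members. The log2 difference of 0.44 (SE 0.16) did not pass (limma adjusted p = 0.0554). Without control library 1 it was 0.60 and called (limma adjusted p = 0.0126), and without knockout library 1 it was 0.59 and called (limma adjusted p = 0.0204), so the outcome for DNAJA2 rests on those libraries. It was also called in 3 of the other alternatives, at adjusted p of 0.0449 to 0.0494. DNAJA2 (ENSG00000069345) lies on chromosome 16 at 46955362 to 46973788, minus strand, and its exons overlap no other gene.

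**Figure D2:**
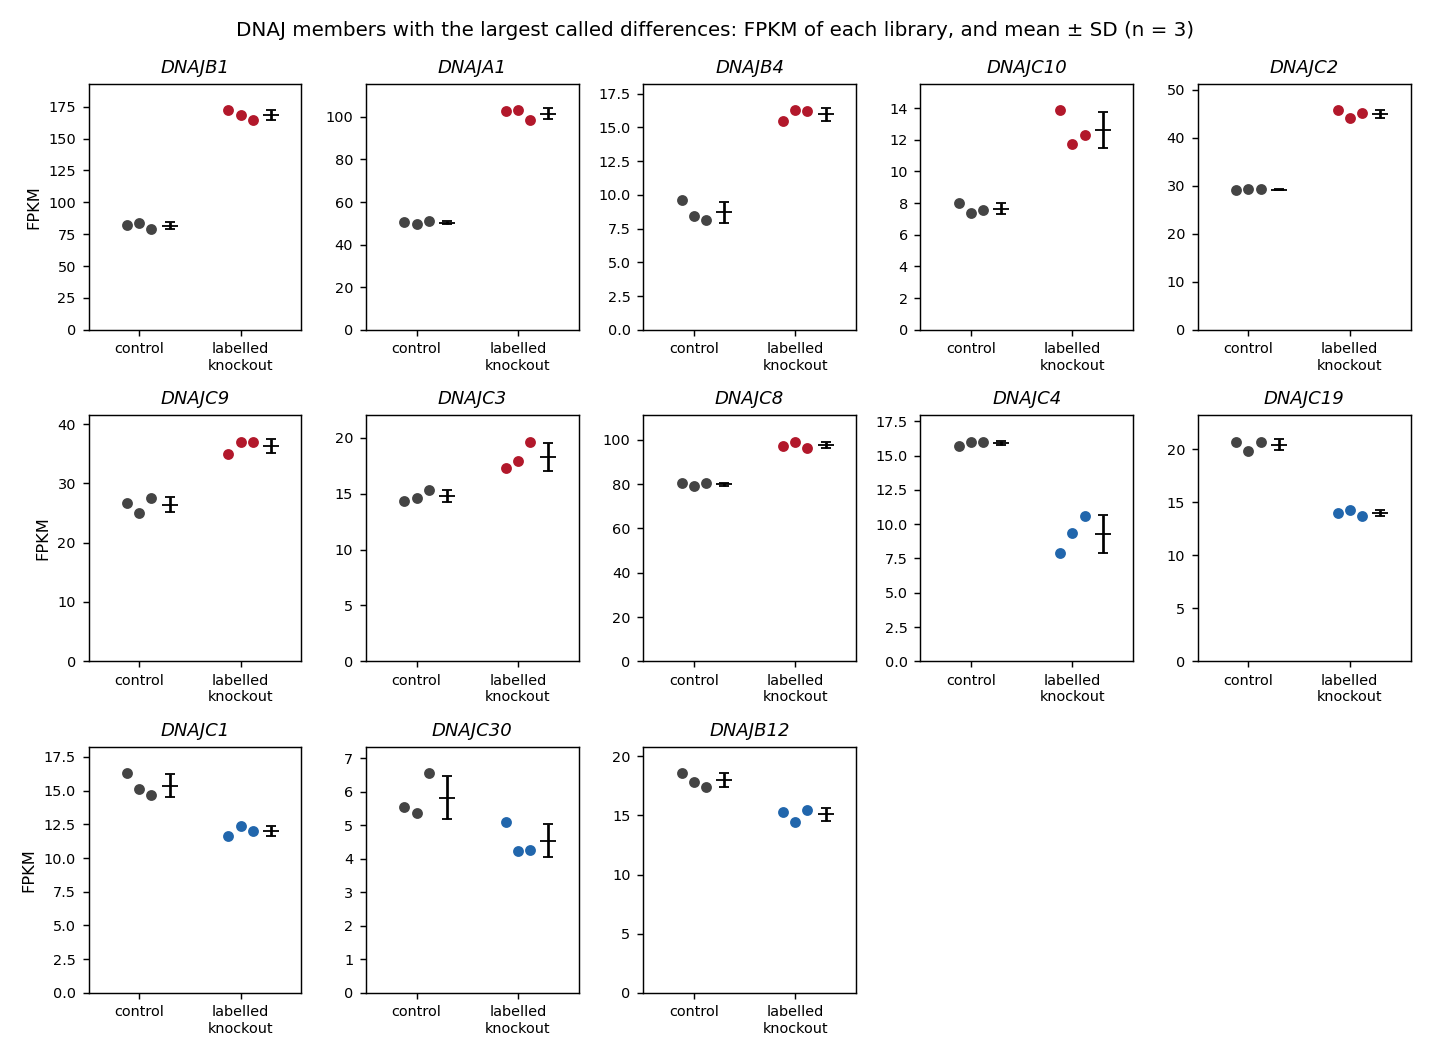
FPKM of each library (points, libraries 1 to 3 from left to right in each group) with the mean and SD of 3 libraries (bars) for the 8 largest increases and 5 largest decreases among called DNAJ members whose groups do not overlap and that reach 5 FPKM. Each panel has its own axis from 0. DNAJB1 and DNAJA1 sit at about double their control level in every library labelled knockout, and DNAJC30 shows the narrowest gap, between 5.10 and 5.37 FPKM.

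Of the 4 members in the ER lumen, where the HSP70 protein BiP works, 3 rose, beside 25.3% of all tested genes. Of the 6 in the ER membrane 3 fell, beside 29.2% of all tested genes. This division of the ER members was made after the values were seen. DNAJC10, a reductase that removes wrong disulfide bonds before degradation, had the largest change of these: 8.02, 7.37 and 7.59 FPKM across controls 1 to 3, against 13.9, 11.7 and 12.3 FPKM across knockout libraries 1 to 3. All libraries labelled knockout were higher, with knockout library 1 the highest (log2 difference 0.65, SE 0.069, limma adjusted p = 0.000307). DNAJC10 (ENSG00000077232) is on chromosome 2 at 182716041 to 182794464, plus strand. DNAJC3, also an inhibitor of stress kinases that slow translation, measured 14.3, 14.6 and 15.4 FPKM across controls 1 to 3, against 17.3, 17.9 and 19.7 FPKM across knockout libraries 1 to 3. The gap between groups was smaller than for DNAJC10 but free of overlap (log2 difference 0.29, SE 0.056, limma adjusted p = 0.00455).

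DNAJB11, which binds unfolded clients in the ER lumen and passes them to BiP, was the second most abundant DNAJB gene. It measured 78.6, 74.7 and 81.8 FPKM across controls 1 to 3, against 96.4, 94.6 and 89.3 FPKM across knockout libraries 1 to 3. All libraries labelled knockout were above the highest control (log2 difference 0.25, SE 0.045, limma adjusted p = 0.00308). DNAJB11 exons share 381 bp with those of TBCCD1 on the other strand, which was at 4.88 ± 0.167 and 6.94 ± 0.750 FPKM. They also overlap those of AC068631.2 on the same strand, a gene that was not listed. Any part of shared reads in the DNAJB11 difference was not tested. DNAJB9, a lumenal repressor of a stress sensor and a standard readout of the unfolded protein response, was at 14.8 ± 1.14 and 13.4 ± 0.63 FPKM with overlapping groups and was not called (log2 difference -0.13, limma adjusted p = 0.127). Its exons overlap those of PNPLA8 and THAP5 on the other strand.

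Among members anchored in the ER membrane, a group set apart after the values were seen, 3 fell and 0 rose. Over all tested genes 29.2% were called lower and 25.3% higher. DNAJC1, which binds ribosomes at the translocon, measured 16.3, 15.1 and 14.7 FPKM across controls 1 to 3, against 11.67, 12.34 and 12.01 FPKM across knockout libraries 1 to 3. Every control was above every library labelled knockout (log2 difference -0.33, SE 0.051, limma adjusted p = 0.0016). DNAJB12, which feeds misfolded membrane proteins to degradation, measured 18.6, 17.9 and 17.4 FPKM across controls 1 to 3, against 15.3, 14.5 and 15.5 FPKM across knockout libraries 1 to 3 (log2 difference -0.24, SE 0.045, limma adjusted p = 0.0039). DNAJB14, its close relative with the same topology, was at 15.3 ± 0.214 and 15.9 ± 0.0236 FPKM and was not called (limma adjusted p = 0.246). DNAJC18, from the same branch, was scarce and fell from 2.13 ± 0.111 to 1.178 ± 0.121 FPKM (log2 difference -0.52, SE 0.08, limma adjusted p = 0.00156). DNAJC14 and DNAJC16 were not called, with log2 differences of 0.07 and -0.16. DNAJC16 was called without a variance trend and after a trend with GC and length was taken out (-0.23).

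Of 6 members listed as mitochondrial 3 fell and 1 rose, beside 29.2% called lower and 25.3% called higher over all tested genes. DNAJC4, a little-studied membrane-bound J protein, measured 15.7, 16.0 and 16.0 FPKM across controls 1 to 3, against 7.88, 9.35 and 10.6 FPKM across knockout libraries 1 to 3. The controls were almost level while the libraries labelled knockout spread more widely, all of them lower (log2 difference -0.73, SE 0.093, limma adjusted p = 0.000704). DNAJC4 (ENSG00000110011) lies on chromosome 11 at 64230278 to 64234286, plus strand, where its exons share 297 bp with those of NUDT22 on the same strand. NUDT22 was at 27.7 ± 1.00 and 28.0 ± 1.84 FPKM, and the part of shared reads in the DNAJC4 difference was not tested.

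DNAJC19, a subunit of the motor that pulls proteins through the inner membrane translocase, measured 20.7, 19.8 and 20.7 FPKM across controls 1 to 3, against 14.0, 14.3 and 13.7 FPKM across knockout libraries 1 to 3. Both groups were tight and apart (log2 difference -0.52, SE 0.039, limma adjusted p = 8.2e-05). It lies on chromosome 3 at 180983709 to 180989774 (ENSG00000205981), and GENCODE names 9 pseudogenes of it, so its share of reads is uncertain. DNAJC15, its paralog in the same motor, was scarce at 2.10 ± 0.182 and 1.86 ± 0.0137 FPKM and was not called. DNAJC30, which binds the ATP synthase, measured 5.54, 5.37 and 6.55 FPKM across controls 1 to 3, against 5.10, 4.24 and 4.27 FPKM across knockout libraries 1 to 3. Its groups lay close, and the call (log2 difference -0.30, SE 0.093, limma adjusted p = 0.0295) was lost on leaving out control 3 (-0.22), or either of knockout libraries 2 (-0.26) and 3 (-0.27). It was also lost in 3 other alternatives. Its single exon overlaps exons of BUD23 on the other strand, which stood at 80.7 ± 1.37 and 91.7 ± 2.87 FPKM.

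DNAJC11, a member of the outer membrane that associates with the cristae-organizing complex, went the other way and rose from 26.1 ± 0.282 to 29.5 ± 0.762 FPKM (log2 difference 0.17, SE 0.035, limma adjusted p = 0.00561). Its exons share 1419 bp with those of THAP3 on the other strand, which was at 11.9 ± 0.704 and 13.0 ± 0.505 FPKM. DNAJA3, the matrix cochaperone of mitochondrial HSP70, was not called at 46.9 ± 1.20 and 48.9 ± 1.97 FPKM (log2 difference 0.06, limma adjusted p = 0.253).

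Members that serve the ribosome, the spliceosome and histones included 3 that rose and 0 that fell of 6. The shares called over all tested genes were 25.3% higher and 29.2% lower. DNAJC2, the ribosome-associated J protein that acts on nascent chains and also binds ubiquitylated histone H2A, measured 29.03, 29.37 and 29.22 FPKM across controls 1 to 3, against 45.8, 44.1 and 45.2 FPKM across knockout libraries 1 to 3. Both groups were tight and did not overlap (log2 difference 0.61, SE 0.031, limma adjusted p = 1.92e-05). DNAJC2 (ENSG00000105821) lies on chromosome 7 at 103312474 to 103344873, minus strand, and its exons share 628 bp with those of PMPCB on the other strand, which was at 48.7 ± 5.53 and 44.3 ± 4.82 FPKM.

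DNAJC9, a cochaperone of histones H3 and H4, measured 26.66, 24.98 and 27.50 FPKM across controls 1 to 3, against 34.9, 36.9 and 37.0 FPKM across knockout libraries 1 to 3 (log2 difference 0.45, SE 0.047, limma adjusted p = 0.000302). Its exons overlap those of MRPS16 on the same strand (46.4 ± 1.37 and 44.6 ± 1.32 FPKM). They also overlap those of FAM149B1 on the other strand (18.6 ± 0.728 and 13.2 ± 0.512 FPKM). The part of shared reads in the DNAJC9 difference was not tested. DNAJC8, a spliceosome-associated J protein and the most abundant DNAJC gene, measured 80.3, 79.1 and 80.5 FPKM across controls 1 to 3, against 97.4, 99.3 and 96.5 FPKM across knockout libraries 1 to 3. The groups were well apart with little spread (log2 difference 0.29, SE 0.027, limma adjusted p = 0.000192). DNAJC21, which helps mature the large ribosomal subunit, DNAJC17, another splicing factor, and DNAJC24, which acts in diphthamide synthesis, were not called, with log2 differences of 0.04, -0.01 and -0.14. DNAJC17 had a pooled SD of 0.19 on the log2 scale, and its exons overlap those of 3 listed genes.

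Of the vesicle members, DNAJC5, the cysteine string protein that keeps the fusion machinery folded, rose from 20.1 ± 0.409 to 23.9 ± 1.19 FPKM (log2 difference 0.24, SE 0.046, limma adjusted p = 0.00402). DNAJC6 (auxilin), which strips clathrin from vesicles, and DNAJC13, an endosomal sorting protein, were not called, with log2 differences of 0.10 and 0.02. DNAJC6 was called under quantile normalization (0.23). Outside these roles, DNAJC22, DNAJC25, DNAJC27 and DNAJC28 were not called. DNAJC22 stood at 5.78 ± 0.372 and 4.54 ± 0.798 FPKM with no overlap between groups, just above the threshold (limma adjusted p = 0.0504). It was called without knockout library 3 (-0.40, limma adjusted p = 0.013). It was also called with the filter at 5 FPKM (limma adjusted p = 0.047) and with the trend in GC and length removed (limma adjusted p = 0.0486). DNAJC25 shares exons with the read-through gene DNAJC25-GNG10 (23.9 ± 1.36 and 20.1 ± 2.30 FPKM), so its own level of 7.35 ± 0.538 and 8.32 ± 0.88 FPKM depends on how reads were divided.

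FPKM are per length, so levels can be set side by side between genes. In the mean over all libraries 8 members exceeded 40 FPKM (DNAJB1, DNAJC8, DNAJB11, DNAJB6, DNAJA1, DNAJC7, DNAJA2 and DNAJA3), of which 5 rose, 0 fell and 3 were not called. Over all tested genes, at any level, 25.3% were called higher and 29.2% lower. Of all called genes 46.4% were higher, and 50% with the filter at 5 FPKM. Shares of all genes above 40 FPKM or below 10 FPKM were not computed. The 6 members that fell had control means of 2.13 to 20.4 FPKM, with a median of 15.6, and the 13 that rose had control means of 0.937 to 81.6 FPKM, with a median of 26.4. Of 13 members below 10 FPKM, 3 were called: DNAJB5 rose, and DNAJC18 and DNAJC30 fell. The median GC content of the longest GENCODE transcript was 44.5% for members that rose, 52.9% for those that fell and 41.9% for those not called. After removal of a trend with GC and length over all genes, 18 of the 19 calls were kept in the same direction, DNAJC30 being lost.

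**Figure D3:**
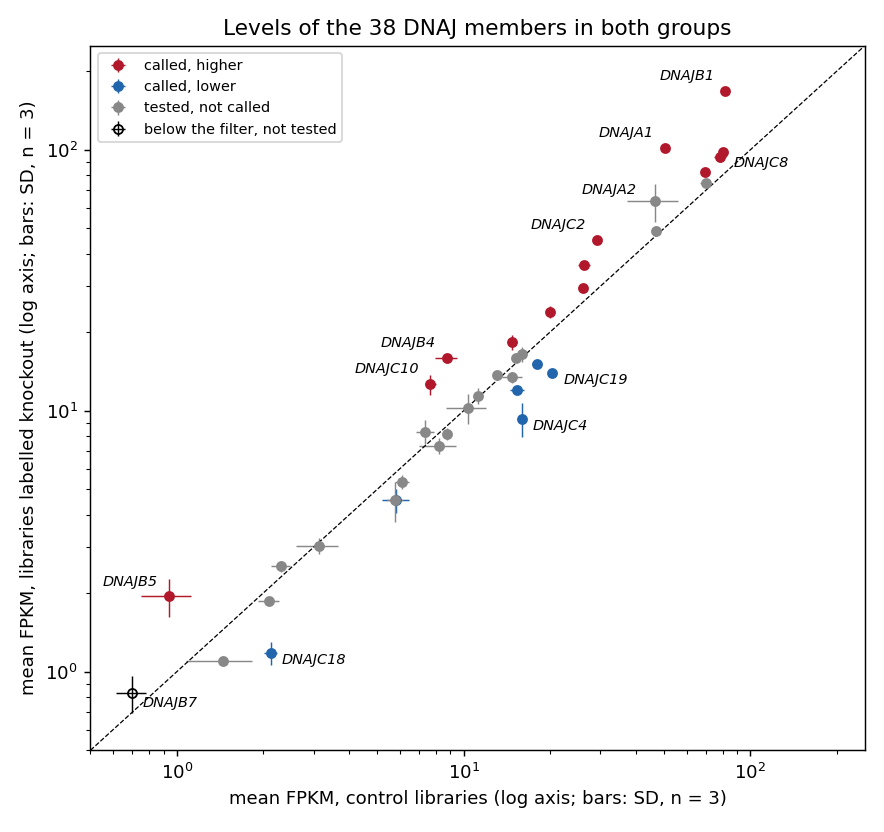
Mean FPKM of the 38 DNAJ members in the control libraries (horizontal, log axis) against the libraries labelled knockout (vertical, log axis), with SD of 3 libraries as bars. The dashed line marks equal levels. Members above 40 FPKM lie on or above the line, up to DNAJB1 at 81.6 and 169 FPKM, and the members called lower lie at control means of at most 20.4 FPKM.

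Summed over the family, DNAJ transcripts came to 868, 854 and 862 FPKM in control libraries 1 to 3 and to 1087, 1102 and 1094 FPKM in knockout libraries 1 to 3. All libraries labelled knockout were higher, and the mean ratio was 1.27. DNAJB1 and DNAJA1 together made up 15.3% ± 0.316 of this sum in the controls and 24.7% ± 0.618 in the libraries labelled knockout (SD, n = 3). Without the pair the sum was 729 ± 8.15 and 824 ± 10.4 FPKM, a ratio of 1.13. By subclass the ratio of means was 1.49 for DNAJA, 1.40 for DNAJB and 1.11 for DNAJC. Sums are dominated by abundant members and carry no test.

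Of 12 HSP70 genes, whose proteins DNAJ members activate, 8 were tested: HSPA1B, HSPA1A, HSPA8, HSPA14 and HSPA5 rose, HSPA13 fell, and HSPA12A and HSPA9 were not called. Over all tested genes 25.3% were called higher and 29.2% lower. HSPA8, the constitutive cytosolic HSC70, rose from 646 to 1264 FPKM, by 0.97 on the log2 scale (SE 0.027, limma adjusted p = 2.41e-06), beside 1.04 for DNAJB1 and 1.00 for DNAJA1. The inducible pair HSPA1A and HSPA1B, near-identical copies whose reads cannot be divided with certainty, rose by 1.66 and 1.67. HSPA13, a microsomal HSP70, fell by 0.61 on the log2 scale. HSPA5, the ER protein BiP served by DNAJB11, DNAJC3 and DNAJC10, differed by 0.08, a call (limma adjusted p = 0.0275) lost in 6 of 15 alternatives, among them those without control 1, control 2, knockout library 1 or knockout library 3, and HSPA9, the mitochondrial HSP70 served by DNAJA3 and DNAJC19, was at 192 FPKM in both groups and was not called. The summed HSP70 list gave 1.56 ± 0.0289 FPKM per DNAJ FPKM in the controls and 2.06 ± 0.0246 in the libraries labelled knockout (SD, n = 3).

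Of 14 genes listed here as nucleotide exchange factors, which reset HSP70 after DNAJ proteins have loaded it, 10 rose and 2 fell. The shares over all tested genes were 25.3% and 29.2%. The call of BAG6 (higher, 0.09) was lost in 8 of 15 alternatives and that of GRPEL2 (lower, -0.11) in 9 of 15. HSPH1, the HSP110 partner of DNAJB1 in disaggregation, rose by 1.09 on the log2 scale, BAG3 by 0.81, HSPA4L by 0.60 and BAG4 by 0.44. Of the exchange factors of BiP, SIL1 fell by 0.35 on the log2 scale and HYOU1 rose by 0.11. Among J-domain proteins that carry other symbols, HSCB, the mitochondrial cochaperone of iron-sulfur cluster assembly, fell by 0.74, SEC63, the J protein of the ER translocon, fell by 0.21, and GAK, the auxilin relative, was not called. Of 7 genes listed as regulators of chaperone gene transcription, acting directly or upstream, 0 rose and 5 fell at the mRNA level. Of all tested genes 25.3% and 29.2% did so. On the log2 scale ATF4 fell by 0.94, XBP1 by 0.91, ATF6B by 0.52, ERN1 by 0.38 and HSF1 by 0.27. HSF1 was no longer called when the trend with GC and length was removed (-0.11). HSF2 (0.14) and ATF6 (0.05) were not called, though HSF2 was called higher in 4 of 15 alternatives, 1 of them without knockout library 2. mRNA levels do not measure the activity of these factors.

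**Figure D4:**
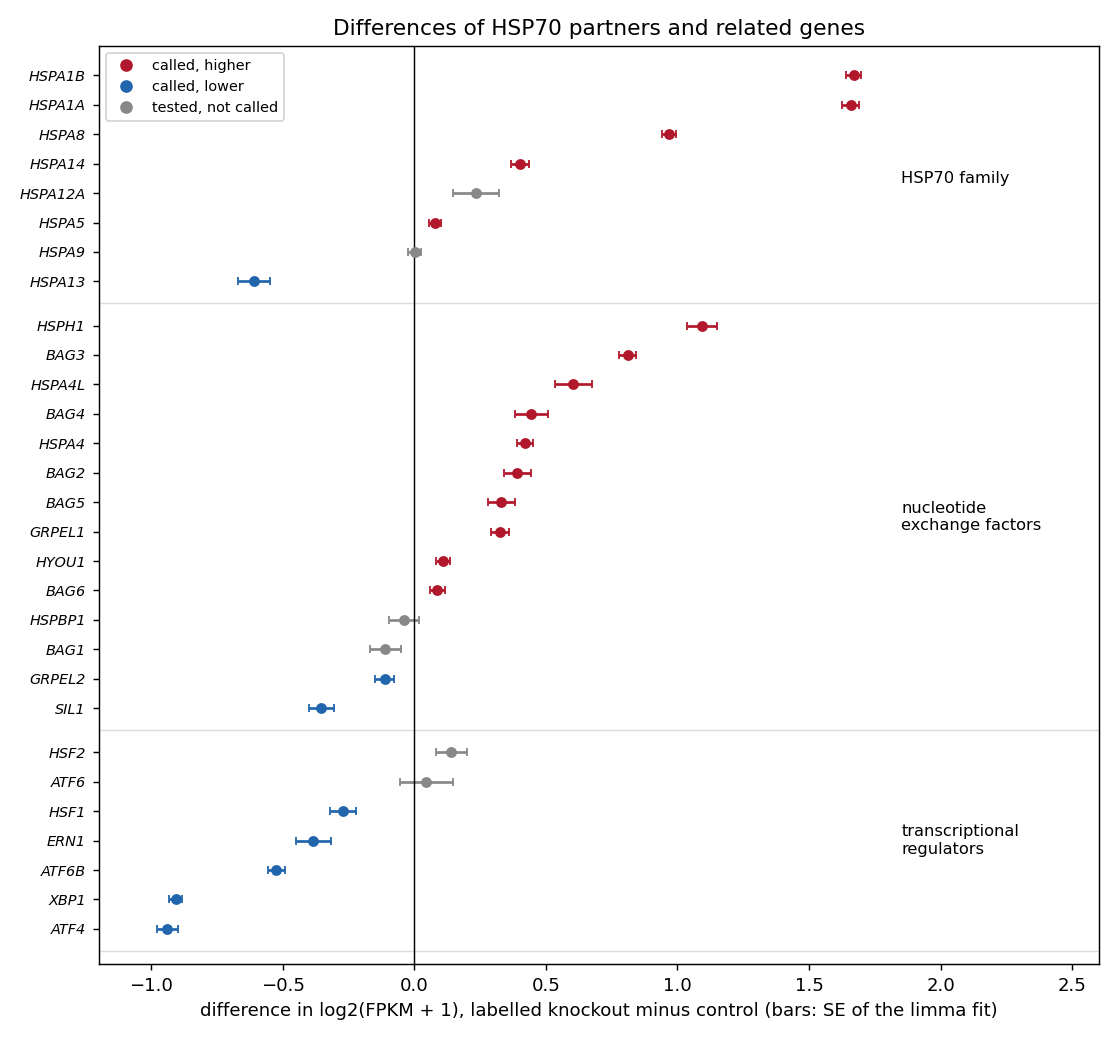
Difference in log2(FPKM + 1), libraries labelled knockout minus control, with the standard error of the limma fit. Shown are the tested genes listed as HSP70 family, nucleotide exchange factors and regulators of transcription. Red was called higher, blue lower and grey not called. HSPA1B, HSPA1A and HSPH1 lie beyond 1, and the called regulators all lie left of 0, from ATF4 at -0.94 to HSF1 at -0.27.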

How the data were processed

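RNA-seq of 6 HCT15 libraries was used, 3 per group. The authors deposited FPKM (fragment numbers divided by transcript length and library total), per the file headers. HISAT2 2.2.1 and StringTie 2.0.4 with hg38 are named in the submitters' processing notes. The sources used here do not give the annotation, strand use or row filter. Of ratios between libraries at values below 0.5 FPKM, at most 0.93% fell in a window 0.1% wide, so whole reads were not recovered and the depth per library is unknown.

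From the deposited FPKM, log2(FPKM + 1) was fitted for the 11451 genes whose mean reached 1 FPKM, by limma 3.58.1 in R 4.3.3 with a variance trend and no covariate. P-values are 2-sided and Benjamini-Hochberg adjusted over those genes, with a threshold of 0.05. The fit was tested on simulated data. Fold changes on this scale understate those of low genes. Locations and exon overlaps are from GENCODE 29, and promoters from RefSeq (GRCh38.p14). Proteins were not analysed here. Python 3.11.15, pandas 2.3.3 and matplotlib 3.10.9 made tables and figures.

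Members, lists, roles and tests were chosen with earlier results of these data known. All 6 values are given for called members with no overlap between groups and at least 5 FPKM in the higher group (up to 8 per direction, by log2 difference), and for the 2 most abundant members of each subclass. Of each related list, up to 4 called genes with the largest difference are named, and any others named were picked with their values in view. The alternatives were other pseudocounts, filters, scalings and variance settings, a replicate block, leaving out each library and, added after seeing the data, removal of a GC and length trend and leaving out members with overlapping exons. Of the list of J-domain proteins with other symbols, 1 gene is not reported here.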

Additional observations from a re-analysis of the deposited data

How the results depend on the processing

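The number of called DNAJ members was 19 and ranged from 18 to 22 over 15 alternatives run on all members, and 12 of 24 when members whose exons overlap those of another listed gene were left out (fewer members tested, chosen after seeing the data). Of the 19 called members, 18 stayed called in the same direction in every alternative that tested them, and the exception was DNAJC30. Of 18 tested members not called, 5 were called in some alternative (DNAJA2, DNAJC16, DNAJC22, DNAJC6 and DNAJC7). No called member changed sign. The filter at 5 FPKM tested 17 of the 19 calls and kept 17. The median log2 difference of the members, 0.059, became 0.084 on a TPM scale, 0.086 under median centring, 0.081 under quantile normalization, and 0.043 to 0.078 when single libraries were left out. With the trend in GC and length taken out it was 0.041, beside 0.01 over all genes. The median of all genes moved with scaling from -0.018 to at most 0.025. RBM15 was called higher in every alternative.

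With the replicate block 18 members were called, and DNAJC30 was lost (-0.30, limma adjusted p = 0.051). Same-numbered libraries did not deviate together (correlations of -0.035, -0.037 and 0), and they share only a number. Depth is unknown, so the smallest difference that reads could resolve at low levels cannot be given.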
